A study of Mus musculus with 2 samples.

Results

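DPPA2 peaks that were present both after adriamycin and without it, and that lay inside the bodies of protein-coding genes, numbered 1498 in mouse embryonic stem cells. A member was a peak of the adriamycin list on chromosomes 1 to 19, X or Y that met 4 conditions. Its fold enrichment was below 9, it overlapped a peak of the untreated list by at least 1 bp, its summit lay inside a RefSeq protein-coding gene, and that summit was more than 1000 bp from every protein-coding gene end. The adriamycin list held 16229 peaks on these chromosomes, and 5584 of them (34.4%) overlapped an untreated peak. The members were chosen by their adriamycin fold and their overlap, so values of those measures are given below as descriptions. The 1498 members lay in 1279 of 21887 protein-coding genes (5.84%).

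Chromatin immunoprecipitation and sequencing (ChIP-seq) with an antibody to DPPA2 was done on R1/E cells, a mouse embryonic stem cell line with intact p53 that was grown on gelatin with leukemia inhibitory factor. One library came from cells exposed to adriamycin for 8 h, a drug that traps topoisomerase on DNA and so leads to breaks, and 1 from untreated cells of the same line. The study asked where DPPA2 binds upon DNA damage. The batch label was the same for both, and the genotype entry of the adriamycin library held its treatment, so its group was read from its title. With 1 library a group there was no replicate, no test between the conditions was possible, and every interval below covers counting error only.

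DPPA2 is a small nuclear protein of early embryos and pluripotent cells that works as a pair with DPPA4. The pair is known to occupy CG-rich promoters, many of them developmental genes that carry both activating and repressive histone marks, and to take part in the control of DNA methylation there. A long gene body can hold enhancers, repeats and additional promoters, and such an internal promoter starts a shorter transcript of the same gene or a non-coding transcript.

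Members at internal promoters are shown first, because their sequence could be read. The promoter windows come from RefSeq on GRCm38.p6, the build also called mm10, and run from 250 bases before to 50 bases after a start site. The 6 windows below are those of the members with the highest adriamycin fold among members whose summit lay inside an internal window, with 1 window per peak. Each is written 5′ to 3′ on the strand of its transcript, and every CG dinucleotide is in capitals. The window of Nkain2, which encodes a partner of the sodium pump, was chr10:32889866-32890165 on the minus strand. The window of Gm30140, a long non-coding RNA (lncRNA) gene inside Clip4, was chr17:71782633-71782932 on the minus strand. The window of Cabp2, a calcium-binding protein gene of sensory hair cells, was chr19:4083269-4083568 on the plus strand. The window of Gm31356, an lncRNA gene inside Gpam, was chr19:55099221-55099520 on the plus strand. The window of Spast, which encodes the microtubule-severing enzyme spastin, was chr17:74338737-74339036 on the plus strand. The window of Fam171a1 was chr2:3118132-3118431 on the plus strand.
Nkain2: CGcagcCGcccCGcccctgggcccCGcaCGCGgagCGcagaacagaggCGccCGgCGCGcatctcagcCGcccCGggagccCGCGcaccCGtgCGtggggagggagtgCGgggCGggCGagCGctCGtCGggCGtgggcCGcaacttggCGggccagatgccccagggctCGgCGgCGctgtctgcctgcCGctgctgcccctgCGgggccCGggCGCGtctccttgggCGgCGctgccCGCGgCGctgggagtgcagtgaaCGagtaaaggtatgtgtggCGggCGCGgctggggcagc
Gm30140: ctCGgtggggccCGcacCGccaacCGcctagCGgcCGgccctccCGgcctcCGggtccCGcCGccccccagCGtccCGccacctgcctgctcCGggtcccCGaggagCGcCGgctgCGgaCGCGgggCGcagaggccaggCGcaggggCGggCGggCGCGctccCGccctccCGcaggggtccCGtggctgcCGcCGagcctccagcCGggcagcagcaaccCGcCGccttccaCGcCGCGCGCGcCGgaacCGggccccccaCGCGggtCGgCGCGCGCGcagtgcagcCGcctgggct
Cabp2: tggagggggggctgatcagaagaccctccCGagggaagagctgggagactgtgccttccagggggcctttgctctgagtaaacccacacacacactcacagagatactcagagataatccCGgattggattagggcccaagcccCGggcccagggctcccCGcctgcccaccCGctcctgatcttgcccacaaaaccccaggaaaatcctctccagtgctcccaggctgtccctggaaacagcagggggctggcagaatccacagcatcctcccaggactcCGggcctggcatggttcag
Gm31356: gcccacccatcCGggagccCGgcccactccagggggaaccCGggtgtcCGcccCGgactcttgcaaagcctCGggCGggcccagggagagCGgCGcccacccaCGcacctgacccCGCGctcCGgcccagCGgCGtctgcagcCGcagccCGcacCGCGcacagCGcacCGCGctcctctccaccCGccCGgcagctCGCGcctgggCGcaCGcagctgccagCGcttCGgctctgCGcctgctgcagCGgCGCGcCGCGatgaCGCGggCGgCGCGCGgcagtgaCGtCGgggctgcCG
Spast: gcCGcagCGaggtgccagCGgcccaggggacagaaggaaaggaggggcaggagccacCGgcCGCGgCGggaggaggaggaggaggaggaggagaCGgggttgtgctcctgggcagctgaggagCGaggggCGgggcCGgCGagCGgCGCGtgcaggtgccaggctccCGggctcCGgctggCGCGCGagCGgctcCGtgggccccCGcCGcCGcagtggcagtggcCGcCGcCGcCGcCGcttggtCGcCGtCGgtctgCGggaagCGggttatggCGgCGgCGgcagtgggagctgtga
Fam171a1: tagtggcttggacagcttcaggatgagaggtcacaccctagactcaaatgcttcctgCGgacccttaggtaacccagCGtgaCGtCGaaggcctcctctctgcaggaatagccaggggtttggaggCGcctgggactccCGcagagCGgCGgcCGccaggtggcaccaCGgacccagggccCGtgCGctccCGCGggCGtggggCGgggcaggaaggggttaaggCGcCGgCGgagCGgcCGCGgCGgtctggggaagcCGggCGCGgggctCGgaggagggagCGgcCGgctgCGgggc

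All of these windows but that of Cabp2 were dense in CG. The Gm30140 window held 48 CG dinucleotides and was 83.3% G or C, the Gm31356 window held 45, the Nkain2 window 43, the Spast window 38 and the Fam171a1 window 30. The Cabp2 window stood apart with 6 CG dinucleotides at 61.7% G or C, and its ratio of observed to expected CG was 0.21. In Nkain2 the fold was 8.89 with adriamycin and 6.30 untreated, with summit pileups of 23 (14.6 to 34.5) fragments with adriamycin and 16 (9.15 to 26.0) untreated, and the summit lay 117 bp upstream of the start site. The pileup is the number of fragments stacked at a summit, and the bounds are exact Poisson limits at 95%. In Cabp2 the fold was 7.75 with adriamycin and 4.21 untreated, and the pileups were 28 (18.6 to 40.5) with adriamycin and 14 (7.65 to 23.5) untreated. In Gm31356 both libraries had a pileup of 21 (13.0 to 32.1), so the unscaled heights were equal there. For Nkain2 and Cabp2 alike the higher pileup was with adriamycin, and the intervals of both libraries overlapped.

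Over the whole set, 73 of 1456 members on chromosomes with entries in the promoter table overlapped an internal promoter window by at least 1 bp (5.01%, 3.95 to 6.26, exact Clopper-Pearson at 95%). These members covered 95 of 6671 internal windows (1.42%), some of which overlap each other. The adriamycin-only peaks inside gene bodies, those with no untreated counterpart, overlapped one in 165 of 3856 cases (4.28%, 3.66 to 4.97), so the intervals of both kinds of peak overlapped. Of the 73 members, 63 were at a promoter of the gene that held them and 14 at a promoter of a non-coding gene, some at both. The summit itself lay inside an internal window in 22 of 1456 members (1.51%). In the other members among the 73 the peak overlapped a window and its summit lay outside. These included members in Pcgf5 and Dnmt3a, which encode a Polycomb subunit and a DNA methyltransferase, the histone modifier genes Hdac4 and Kmt5a, the circadian factor gene Clock and the LIF receptor gene Lifr. Their summits were 179 bp (Kmt5a) to 597 bp (Dnmt3a) from the start site. Pcgf5 had a fold of 8.13 with adriamycin and 6.99 untreated, with pileups of 26 (17.0 to 38.1) with adriamycin and 19 (11.4 to 29.7) untreated.

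Summits gathered close around internal start sites. Within 250 bp of one there were 65 members, 14.1 times (10.9 to 17.9) the number that an even spread over all gene bodies would give. At 250 to 500 bp there were 41, or 9.63 times (6.91 to 13.1), and at 500 to 1000 bp 24, or 3.00 times (1.92 to 4.46). From 1000 to 2000 bp the 14 members were 0.938 times (0.513 to 1.57) an even spread. Adriamycin-only peaks had 15.0 times (12.9 to 17.3) within 250 bp and 7.62 times (6.10 to 9.42) at 250 to 500 bp, so the pattern was seen in both kinds of peak and not in members alone. Part of it lay near gene ends, since 37 of the 73 members at an internal promoter (50.7%) were within 5000 bp of one, against 353 of 1425 other members (24.8%). The end could be that of the gene itself or of another protein-coding gene.

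**Figure D1:**
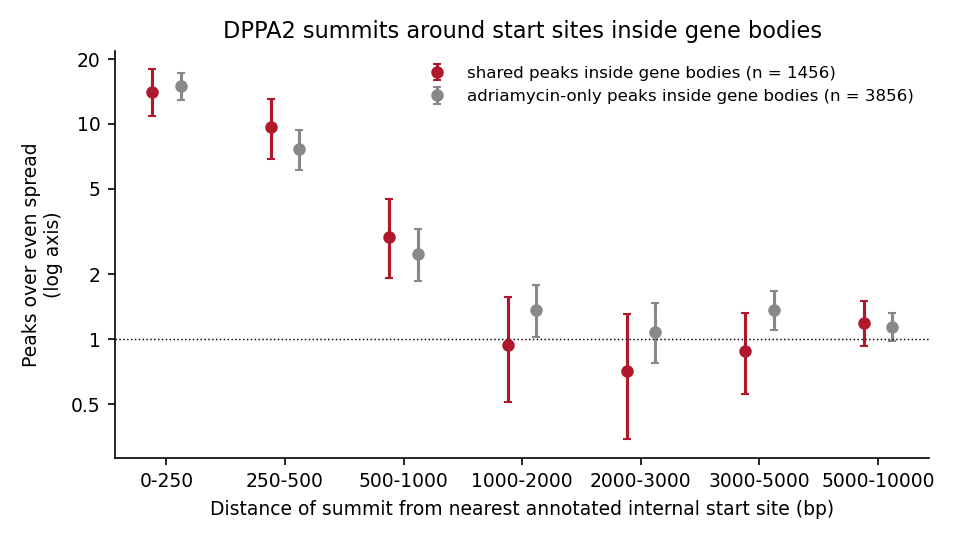
Number of summits by distance from the nearest RefSeq start site inside a gene body, divided by the number an even spread over gene bodies gives (log axis). Points are shared (red, n = 1456) and adriamycin-only (grey, n = 3856) gene-body peaks, bars are exact Poisson 95% limits, and both sets sit far above the dotted line at 1 within 500 bp and close to it beyond 1000 bp.

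The share of internal promoters that held a member was higher at higher CG content, though most windows in every class held none. Overlapping windows of close start sites were counted separately, so the limits treat them as independent although they are not. Windows with a ratio of observed to expected CG of at least 0.8 held a member in 70 of 891 cases (7.86%, 6.18 to 9.82). Windows at 0.6 to 0.8 did so in 14 of 775 (1.81%), windows at 0.4 to 0.6 in 7 of 1006 (0.696%) and windows at 0.2 to 0.4 in 4 of 2031 (0.197%). Of 1968 windows below 0.2, 0 held a member, which allows a share of up to 0.187%. The median window with a member held 34 CG dinucleotides at 72.0% G or C, against 5 at 51.3% for internal windows with no peak in either list. Windows with an adriamycin-only peak held 30 at 69.3%, close to the members.

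**Figure D2:**
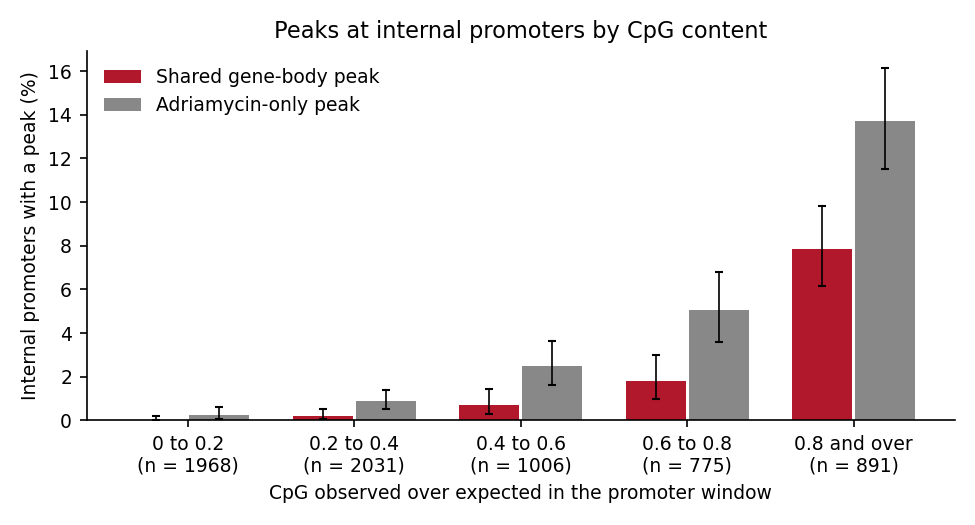
Share of internal promoter windows that overlapped a shared gene-body peak (red) or an adriamycin-only peak (grey), by the ratio of observed to expected CG in the window. Bars start at 0, lines are exact Clopper-Pearson 95% limits, n is the number of windows, and both shares are highest in the class at 0.8 and over, where 7.86% of windows held a shared peak. Overlapping windows of close start sites are counted separately.

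Short motifs were counted on both strands of the windows. The 95 windows with a member belong to 73 members and are not independent, since start sites of 1 gene can lie a few bases apart. Those of Gm30140, for example, begin at 71782633, 71782635 and 71782636. CGCG was in 87 of 95 windows with a member (91.6%), against 26.3% of internal windows with no peak and 38.0% of all 32851 promoter windows. GGGCGG, the core of the GC box that Sp1 family factors bind, was in 78 of 95 (82.1%), against 25.9% of internal windows with no peak and 35.7% of all windows. TATAAA, which the TATA-binding protein recognises, was in 2 of 95 (2.11%), against 13.1% of internal windows with no peak and 13.6% of all. GGAAGT, a core of ETS family sites, was in 19 of 95, against 21.5% of internal windows with no peak and 23.8% of all. CACGTG, the E-box of the MYC family and of CLOCK, was in 6 of 95 (6.32%), against 5.78% of internal windows with no peak and 7.15% of all. CGCG and GGGCGG both contain CG, so their shares move with the CG content of the windows, and they can overlap each other. The match of a motif is a description of letters and not a binding site.

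One member covered microRNA genes. It lay in Rtl1, an imprinted retrotransposon-derived gene that is needed in the placenta, at chr12:109595132-109595474, and it covered the hairpin of Mir136 at chr12:109595327-109595388 on the plus strand and that of Mir3071 on the minus strand. Mir136 lies antisense to Rtl1 and is known to be made from the maternal chromosome. The hairpin of Mir136 is printed 5′ to 3′ with the mature miR-136-5p in capitals.
Mir136: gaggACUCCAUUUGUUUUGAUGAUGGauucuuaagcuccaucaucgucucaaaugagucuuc
The Rtl1 peak had a fold of 4.51 with adriamycin and 6.33 untreated, and pileups of 12 (6.20 to 21.0) with adriamycin and 18 (10.7 to 28.4) untreated. It was 1 of the members with the higher pileup in untreated cells, and its intervals overlapped.

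The members were mostly low peaks, and their height is described next. The median fold was 5.66 with adriamycin (quartiles 4.78 and 6.72) and 5.00 untreated. The median pileup was 17 fragments with adriamycin (quartiles 13 and 22, range 7 to 59) and 15 untreated (quartiles 13 and 18, range 7 to 55). The median local background under the peaks was 2.18 fragments with adriamycin and 2.22 untreated. Members were broader after adriamycin, with a median width of 388 bp against 298.5 bp untreated, and 1064 of 1498 (71.0%) were wider with adriamycin. This was not particular to members, since 72.4% of all shared peaks of fold below 9 were wider with adriamycin. The share was 76.6% at gene ends and 71.8% between genes. A peak's width depends on how much of it passes the caller's threshold, and the adriamycin list was the longer one.

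To set the heights side by side, each pileup was divided by the genome-wide background of its library, 1.03 fragments with adriamycin and 1.19 untreated. The scaled ratio of adriamycin over untreated had a median of 1.31 (quartiles 1.08 and 1.57, range 0.464 to 3.38), and without the scaling it was 1.13. The ratio was above 1 in 1244 of 1498 members (83.0%), against 80.1% of all shared peaks of fold below 9. At gene ends that share was 85.1% and between genes 76.6%. Without the scaling the pileup was higher with adriamycin in 922 members (61.5%), against 59.0% of all shared peaks. The scaled ratio was at least 1.5 in 460 members (30.7%), against 28.8% of all shared peaks of fold below 9. It was at most 1/1.5 in 16 members (1.07%), against 1.19%. Without the scaling, 15.0% of members were at 1.5 or above. At the limits of 1.5 and 1/1.5 the scaled shares of members were thus close to those of all shared peaks. Shared peaks at gene ends had a median ratio of 1.33 and those between genes 1.26. The exact Poisson intervals of the scaled pileups stayed apart in 11 members (0.734%), and in the remaining members they overlapped.

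**Figure D3:**
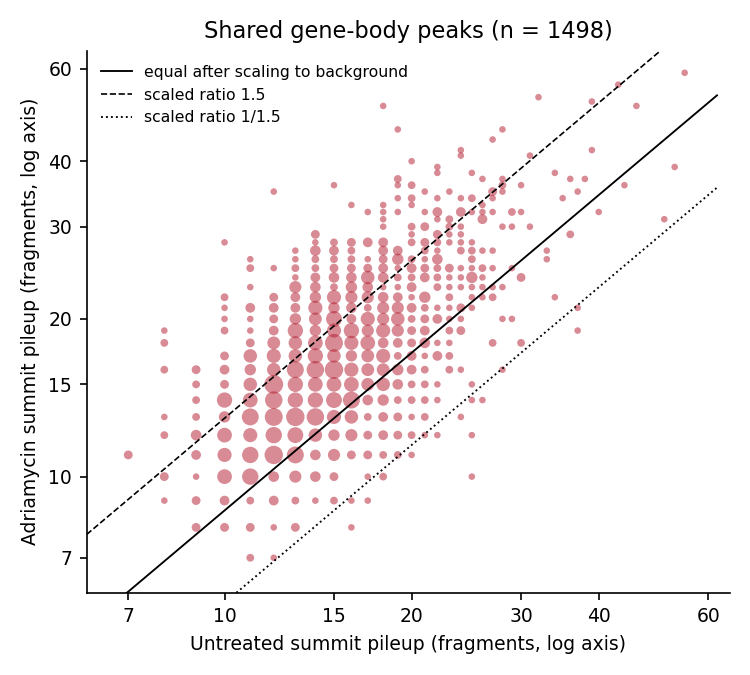
Summit pileup of each shared gene-body peak with adriamycin (vertical, log axis) against untreated (horizontal, log axis), in fragments. Larger dots stand for more members at the same pair of values, and the solid line marks equal heights after scaling to background. Most dots lie above it, as 83.0% of members had a scaled ratio above 1, against 80.1% of all shared peaks of fold below 9.

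The members with the largest ratios lay in genes of varied function. Fbxl18, an F-box protein gene of ubiquitin ligases, had pileups of 35 (24.4 to 48.7) with adriamycin and 12 (6.20 to 21.0) untreated at chr5:142885634-142886281, a scaled ratio of 3.38. Fcsk, which encodes fucose kinase, had 51 with adriamycin and 18 untreated at chr8:110888972-110889364, and Ttll12, of the tubulin tyrosine ligase-like family, had 28 with adriamycin and 10 untreated. Kcp, a secreted modulator of BMP signalling, had 46 with adriamycin and 19 untreated, and Fgfrl1, an FGF receptor relative without a kinase domain, had 36 with adriamycin and 15 untreated. In all 5 the local background was higher with adriamycin too, at 4.08 with adriamycin against 2.94 untreated in Fbxl18.

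At the other end stood the members with the lowest ratios, whose pileups were higher in the untreated library. Stap2, a signalling adaptor gene, had 10 fragments with adriamycin and 25 untreated at chr17:56005706-56005905, a scaled ratio of 0.464. Prkg1, which encodes the cGMP-dependent protein kinase, had 8 with adriamycin and 16 untreated (ratio 0.58). Akap9, an anchoring protein gene of the centrosome and Golgi, had 19 with adriamycin and 37 untreated (ratio 0.60). Chst9, a sulfotransferase gene, had 9 with adriamycin and 17 untreated (ratio 0.61), and the predicted gene Gm32966 had 12 with adriamycin and 25 untreated (ratio 0.56). In each of these members the Poisson intervals of both libraries overlapped. For Stap2 they were 4.80 to 18.4 with adriamycin and 16.2 to 36.9 untreated, and for Akap9 11.4 to 29.7 with adriamycin and 26.1 to 51.0 untreated.

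The members just under the fold limit were, by the rule itself, the tallest relative to their surroundings. Tmprss11f, a membrane serine protease gene, had a fold of 8.97 with adriamycin and 8.12 untreated at chr5:86570274-86571018, with pileups of 32 (21.9 to 45.2) with adriamycin and 24 (15.4 to 35.7) untreated, and the summits were 1 bp apart. Gsdma2, of the gasdermin family of pore-forming proteins, had folds of 8.97 with adriamycin and 6.55 untreated. Aldh1l1, a folate enzyme gene, had folds of 8.89 with adriamycin and 5.80 untreated. Stam, an endosomal sorting gene, had 8.91 with adriamycin and 9.23 untreated, and its scaled pileup ratio was 1.11. Members of this height were also in Slc35f1, Gm7247, Pter, Vmn2r118 and Nkain2, with adriamycin folds of 8.89 to 8.96. The lowest shared gene-body peak outside the limit had a fold of 9.02, and 172 shared gene-body peaks were at or above 9. Members at a fold of 8 to 9 numbered 115 with a median untreated fold of 6.52, and the 71 peaks at 9 to 10 had 7.37.

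Members were chosen for overlapping peaks, so the distance between their summits is bounded by the rule and is given as a description. The median distance between the adriamycin and untreated summits of a member was 70 bp (quartiles 30 and 134). Summits were within 50 bp of each other in 569 members (38.0%) and within 100 bp in 959 (64.0%), and 12 members had summits more than 500 bp apart. Exactly 1 untreated peak matched the member in 1489 cases. The median distance was 90 bp for shared peaks at gene ends and 64 bp for those between genes. Over the 1498 members the pileups of both libraries had a Pearson r of 0.622 on the log2 scale, a description over peaks that share their libraries and local sequence.

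Gene bodies held a smaller share of the shared peaks than of the adriamycin-only peaks. They held 1498 of 4885 shared peaks of fold below 9 (30.7%, 29.4 to 32.0), against 3985 of 10602 adriamycin-only peaks (37.6%, 36.7 to 38.5). Gene bodies more than 1000 bp from an end made up 36.6% of the span of the chromosomes. The shared share was therefore below that of the sequence itself, while gene ends, at 2.93% of the span, held 18.0% of the shared peaks.

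Read the other way, 27.3% (26.1 to 28.5) of adriamycin peaks inside gene bodies were shared, against 26.7% (25.2 to 28.2) at gene ends and 37.4% (36.2 to 38.6) between genes. Shared peaks between genes also had higher folds, since the median was 5.66 for members and 6.33 between genes. Within classes of adriamycin fold most of that gap was gone. At a fold of 4 to 5 the shares were 16.6% inside gene bodies, 18.5% at gene ends and 18.5% between genes. At 6 to 7 they were 52.1% inside gene bodies, 54.8% at gene ends and 52.4% between genes. At 8 to 9 they were 77.7% inside gene bodies, 80.6% at gene ends and 81.7% between genes. Below a fold of 4 the places still differed, with 12.3% inside gene bodies, 9.55% at gene ends and 20.7% between genes.

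**Figure D4:**
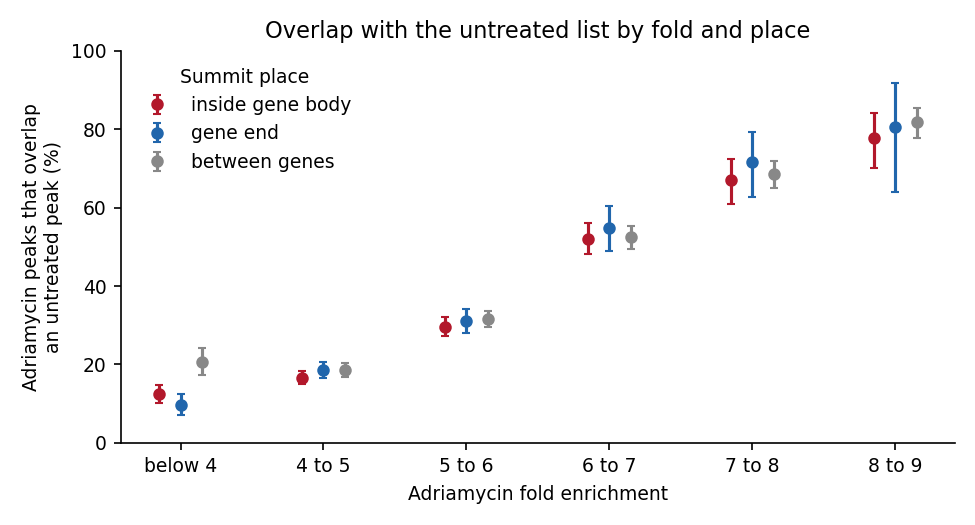
Share of adriamycin peaks that overlapped an untreated peak, by adriamycin fold and by the place of the summit. Points are shares with exact Clopper-Pearson 95% limits, and inside gene bodies the share climbs with fold in every class, to 77.7% at a fold of 8 to 9.

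Long genes held a member more often than short ones. Genes with a member had a median length of 81179 bp, against 17169 bp for all protein-coding genes. A member was found in 64 of 7926 genes of up to 10000 bp (0.807%), in 8.47% of genes of 30000 to 100000 bp, in 40.4% of those of 300000 to 1000000 bp and in 36 of 59 genes above 1000000 bp (61%). Per Mb of gene body the order turned round, with 3.40 members in the shortest class and 0.845 in the longest. The longest gene with a member was Dmd, which encodes dystrophin, and its peak had folds of 7.40 with adriamycin and 4.56 untreated at pileups of 14 with adriamycin and 9 untreated. The member farthest from any gene end was in Cntnap2, a neuronal adhesion gene, 1001732 bp inside, with pileups of 11 (5.49 to 19.7) with adriamycin and 10 (4.80 to 18.4) untreated. The closest was in Runx1t1, a transcriptional co-repressor gene, at 1004 bp.

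Along the gene, members leaned towards the 3′ end. Of 1190 members in a single gene whose strand was in the promoter table, 508 lay nearer its 5′ end (42.7%, 39.9 to 45.6). The last 10% of gene length held 15.7% of them (13.7 to 17.9), the first 10% held 11.6% (9.83 to 13.6), and the stretch from 10 to 50% held between 7.39% and 8.57% per 10% step. From 1000 to 2000 bp of an end, members were 1.61 times (1.23 to 2.06) an even spread at the 5′ side and 1.82 times (1.42 to 2.30) at the 3′ side. From 2000 to 5000 bp they were 0.834 times (0.654 to 1.05) at the 5′ side and 1.41 times (1.17 to 1.68) at the 3′ side. Exons and introns were not used here, since the gene table gives gene bounds.

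Most genes held a single member. There were 1104 genes with 1 member, 134 with 2, 27 with 3 and 14 with more. Neighbouring members of 1 gene were a median of 39445 bp apart, and 55 of 236 such pairs were within 10000 bp. Among the 175 genes with at least 2 members, 116 had every scaled ratio above 1, 2 had none above 1, and 57 had ratios on both sides.

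Prdm16, a zinc finger regulator of brown fat and of stem cells, held 5 over 90902 bp, with adriamycin pileups of 24, 15, 20, 20 and 25 and untreated pileups of 15, 16, 13, 18 and 17. Gse1, a chromatin protein known to associate with the CoREST repressor complex, held 5 with adriamycin pileups of 21, 16, 22, 27 and 27 and untreated pileups of 18, 13, 18, 27 and 15. Pde4d, a cAMP phosphodiesterase gene, held 5 over 1154122 bp with pileups of 12 to 16 with adriamycin and 10 to 16 untreated.

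Several genes with many members had symbols of predicted, clone or zinc finger genes. Whether they have near-identical copies, in which reads are hard to place, was not tested. The clone gene 4930467E23Rik on chromosome 8 held 5 members with adriamycin pileups of 42, 32, 29, 15 and 17 and untreated pileups of 39, 40, 36, 17 and 22. Its local background reached 11.5 fragments with adriamycin and 13.4 untreated. The clone gene 9530057J20Rik nearby held 4, with background up to 8.40 with adriamycin and 11.1 untreated. Gm21119, Gm32966, Gm21154, Zfp993 and Zfp978 held 4 each. Grouped after their values were seen, the 113 members in genes with symbols of the kinds Gm, Rik and Zfp had a median scaled ratio of 1.11 (1.06 to 1.24), against 1.33 (1.28 to 1.34) for the 1385 other members. Because the group was formed from these same values, the difference is a description only. The symbols do not show which of these genes have near-identical copies. Zfp genes, many of which encode zinc finger repressors of transposons, held 3.01 members per Mb (2.13 to 4.13), against 1.5 over all protein-coding genes. That interval includes the 2.16 of all genes of 10000 to 30000 bp, the length class of the median Zfp gene. Rik genes held 2.59 (1.70 to 3.80), against 2.16 in the same class. Gm genes held 2.42 (1.79 to 3.18), below the 3.40 of genes of up to 10000 bp.

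The genes that held members also held other peaks. Of the 1279, 521 (40.7%) had an adriamycin-only peak in their body, against 2500 of 20608 genes without a member (12.1%). Longer genes had more of these peaks in both sets, so length classes were set side by side. At 30000 to 100000 bp the shares were 32.1% (27.7 to 36.7) with a member and 18.7% (17.6 to 19.9) without, and at 100000 to 300000 bp they were 47.9% (42.3 to 53.4) with a member and 38.3% (35.9 to 40.8) without. Peaks at the genes' own ends showed no single order. At 30000 to 100000 bp an adriamycin peak lay at an end in 20.7% of genes with a member (17.0 to 24.8) and in 22.8% of those without (21.6 to 24.0). At 10000 to 30000 bp an untreated peak lay at an end in 10.5% of genes with a member (6.74 to 15.3) and in 4.86% of those without (4.34 to 5.42), and at 300000 to 1000000 bp in 15.4% (10.7 to 21.2) with a member and 8.75% (5.80 to 12.6) without.

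Chromosomes differed in their density of members. Chromosome 8 had the highest among the autosomes, with 2.41 members per Mb of gene body (2.00 to 2.89), against 1.52 over all chromosomes. Chromosome 4 had 2.03 and chromosome 7 1.96, while chromosomes 3, 16 and 6 had 1.05, 1.08 and 1.12. The X chromosome had the lowest density, with 17 members and 0.389 per Mb (0.226 to 0.622), and the Y held 2 members. Its adriamycin-only gene-body peaks were also sparse, at 1.17 per Mb against 4.03 over all chromosomes. The median local background of all peaks on the X was 1.03 with adriamycin and 1.19 untreated, the genome-wide floor of each library, against 1.78 with adriamycin and 1.92 untreated over all chromosomes. On chromosome 8 it was 2.16 with adriamycin and 2.36 untreated. The number of copies of each chromosome was not tested.

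**Figure D5:**
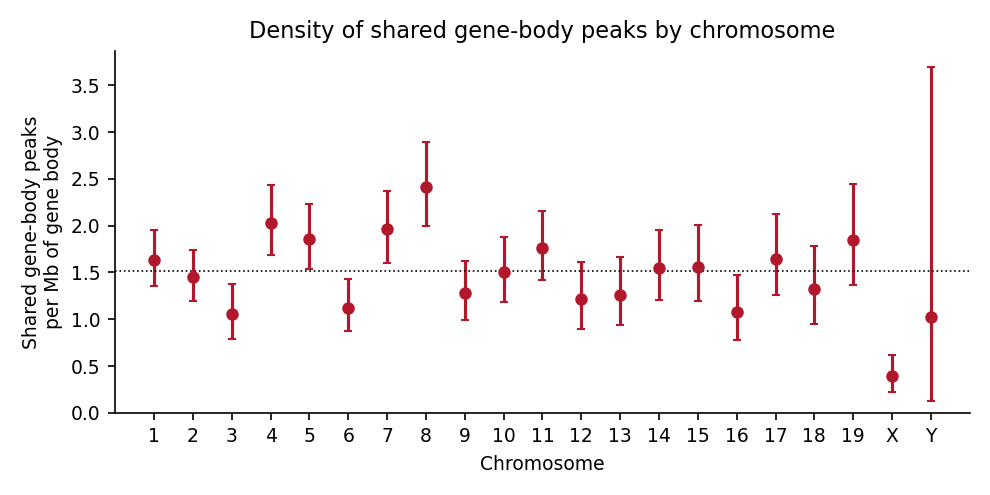
Shared gene-body peaks per Mb of gene body by chromosome, with exact Poisson 95% limits. The dotted line is the value over all chromosomes, 1.52 per Mb, and the X chromosome lies at 0.389, below every autosome.

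Gene groups are described by how many of their genes held a member, against 5.84% of all protein-coding genes, with members per Mb beside it because long genes are hit more often and short genes hold more members per Mb. The members per Mb of all genes in the length class of a list's median gene is given where it bears on the count, with exact Poisson limits for the list. It is a rough guide, because the longer genes of a list weigh more in its rate. Among 24 long genes of fragile sites, places where chromosomes break under replication stress, 18 held a member (75%), and at 0.772 members per Mb (0.509 to 1.12) they were close to the 0.845 of all genes above 1000000 bp. Ctnna3, an alpha-catenin gene, had pileups of 21 with adriamycin and 19 untreated. Immp2l, a mitochondrial peptidase gene, had 20 with adriamycin and 10 untreated, and Lsamp, a neuronal adhesion gene, had 16 with adriamycin and 15 untreated. Fhit, a tumour suppressor gene at a well-known fragile site, also held 1 member.

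Neuronal genes, many of them long, often held a member. Of 40 synaptic adhesion and receptor genes 18 held one (45%) at 0.964 per Mb (0.618 to 1.43), and of 34 ion channel genes 17 did (50.0%) at 1.34 per Mb (0.809 to 2.10). Both intervals include the 1.14 per Mb of all genes of 300000 to 1000000 bp. Negr1, a neuronal growth regulator, had pileups of 20 with adriamycin and 13 untreated. Erc2, of the presynaptic active zone, had 18 with adriamycin and 30 untreated, and its untreated fold of 12.4 was the highest among members. Cacna2d1, a calcium channel subunit, had 30 with adriamycin and 21 untreated. Of 38 cadherin genes 8 held a member, at 1.13 per Mb, and of 38 axon guidance genes 7 did, at 0.627 per Mb, among them the netrin receptors Unc5d and Dcc. Of 46 genes of extracellular matrix and integrins 7 held a member, at 0.991 per Mb. The collagen gene Col4a2 had 27 with adriamycin and 18 untreated.

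Of 47 chromatin regulators 12 held a member (25.5%, 13.9 to 40.3) at 2.49 per Mb (1.33 to 4.26), an interval that includes the 1.84 of all genes of 30000 to 100000 bp. With q of at most 1e-05 in both lists 6 of them did. The median scaled ratio of their 13 members was 1.62, against 1.31 for all members, with a range of 1.08 to 2.32. Medians of the other lists ran from 0.638 to 1.74, both in lists with 1 member. Axon guidance genes had 1.48 and ion channel genes 1.24. Kmt2d, a histone methyltransferase gene of enhancers, had 40 fragments (28.6 to 54.5) with adriamycin and 20 (12.2 to 30.9) untreated at chr15:98839684-98840282. Smarca2, an ATPase of BAF remodelling complexes, had 17 with adriamycin and 11 untreated, and Setd2, a histone methyltransferase gene, had 25 with adriamycin and 17 untreated. All 3 were higher with adriamycin, with intervals that overlapped. They were named for their adriamycin fold, a choice that favours a higher pileup with adriamycin. Dnmt1, Dnmt3a and Tet3, the genes of a maintenance and a de novo DNA methyltransferase and of a demethylation enzyme, held 1 member each.

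Of 54 developmental transcription factors 16 held a member (29.6%, 18.0 to 43.6) at 1.97 per Mb (1.28 to 2.91), against 1.31 for all genes of 100000 to 300000 bp, and with q of at most 1e-05 in both lists 9 did. Gli2, the effector of Hedgehog signalling, had 53 fragments (39.7 to 69.3) with adriamycin and 32 (21.9 to 45.2) untreated at chr1:118837334-118838259. Mecom, a regulator of blood stem cells, had 26 with adriamycin and 22 untreated, and Esr1, the oestrogen receptor, had 15 with adriamycin and 15 untreated. Of 38 Wnt pathway genes 5 held a member, at 2.02 per Mb. The transcription factors of the pathway had 21 with adriamycin and 19 untreated in Tcf7l2, and 18 with adriamycin and 14 untreated in Lef1. The ligand Wnt5b had 13 with adriamycin against 21 untreated. Of 38 genes of the TGF-beta, BMP and FGF pathways 3 did, Smad3, Smad4 and Fgf12, at 0.646 per Mb. Smad3, the signal carrier of TGF-beta, had 27 with adriamycin and 14 untreated.

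Lists tied to DNA damage held 1 to 3 genes with a member each, and with so few members their rates per Mb have wide limits. Of 41 p53 target genes 1 held a member (2.44%, 0.0617 to 12.9) at 0.869 per Mb (0.0220 to 4.84), Ptpn14, a phosphatase gene that restrains YAP, and it was lower with adriamycin, at 11 (5.49 to 19.7) against 20 (12.2 to 30.9) untreated. Of 45 apoptosis genes 3 did (6.67%) at 2.10 per Mb (0.433 to 6.13). Among them, Casp8, the initiator of death receptor signalling, had 10 with adriamycin and 14 untreated, and Casp12 had 9 with adriamycin and 11 untreated. Both were lower with adriamycin, scaled or not, with intervals that overlapped. Of 44 DNA damage response genes 1 held a member (2.27%) at 0.305 per Mb (0.00772 to 1.70), the checkpoint kinase gene Chek2, with 18 fragments with adriamycin and 13 untreated. With q of at most 1e-05 in both lists the counts were 0 for p53 targets, 1 for apoptosis genes and 0 for DNA damage response genes.

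Counts for pluripotency and germline genes were of the same size. Of 32 pluripotency genes 1 held a member (3.13%) at 1.20 per Mb (0.0303 to 6.67), Lifr, with 21 fragments with adriamycin and 14 untreated at chr15:7129600-7129956. That count was 0 with q of at most 1e-05 in both lists. Of 33 germline genes 3 did (9.09%) at 2.45 per Mb (0.505 to 7.16), also at the stricter q. Sycp1, a protein of the synaptonemal complex, had 15 with adriamycin and 16 untreated, Mov10l1, an RNA helicase of the piRNA pathway, had 20 with adriamycin and 19 untreated, and Spo11, which makes meiotic breaks, had 14 with adriamycin and 16 untreated. These 3 differed little between the libraries.

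Some members lay over non-coding genes inside the host. A summit was inside a gene of another kind in 78 members (5.21%), and such genes cover 4.72% of gene bodies. It was in an lncRNA gene in 58 (3.87%), against 4.29% of sequence, and in a pseudogene in 17 (1.13%), against 0.359%. The adriamycin-only peaks had 1.13% in pseudogenes as well. In Pde6a, a phosphodiesterase gene of rod photoreceptors, the peak lay over the ribosomal protein pseudogene Rps2-ps10, with pileups of 32 with adriamycin and 18 untreated. In Trabd2b the summit was inside the lncRNA gene Gm33655, with 25 (16.2 to 36.9) with adriamycin and 11 (5.49 to 19.7) untreated. Pseudogenes resemble their parent genes, so the placement of such reads is uncertain.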

How the data were processed

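Both libraries were measured by DPPA2 ChIP-seq, and each had its own deposited peak list with no pooling. Per the submitters' processing notes, build mm10 was used with Bowtie2 2.5.1, FastQC 0.12.1, MACS3 3.0.0b1, deepTools 3.5.1 and SAMtools. Whether an input was used, and the calling command, is not given in the sources used here. The deposited columns hold the authors' peak score, their fold enrichment (a ratio of summit over local background), −log10 p-values, −log10 q-values and the summit's distance from the peak start in bp. Such a ratio is comparable within a list and shows no change between lists.

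The read depth of each library is unknown. Pileup and background were recovered by matching fold, (pileup + 1) over (background + 1), and the Poisson −log10 p within 0.001, which worked for 99.98% of adriamycin and 99.94% of untreated peaks and was tested on simulated data. Deposited files had 0 columns without a sample. Gene bounds, promoters and microRNAs came from RefSeq tables of GRCm38.p6. Counting intervals are exact at 95%. Python 3.11.15, pandas 2.3.3 and SciPy 1.17.1 were used.

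Named genes are the members highest in fold (10), highest and lowest in scaled ratio (5 each), closest to and farthest from gene ends, the genes with the most members and up to 4 genes per list by fold, with non-coding genes, the longest gene and sequences by fold. Others were named after their values were seen. Members and the 16 gene lists were chosen with earlier results of these data known. Of 627 listed symbols, 617 distinct genes matched. The internal promoter comparison was added after seeing the data. Some genes of these lists are not reported here.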

Additional observations from a re-analysis of the deposited data

How the results depend on the processing

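Of 78 recalculated main values, 55 stayed close to the value given, 23 moved and 0 turned direction. Close means within the 95% limits for shares and medians and within 1.5 times for counts. With q of at most 1e-05 in both lists there were 621 members in 567 genes, 54 of them with several. They were 28.6% of shared peaks and 24.4% of adriamycin gene-body peaks, with a median ratio of 1.26, 24.5% at 1.5 or above, a summit distance of 58 bp and 67 list genes against 132. With reciprocal overlap of at least 50% the distance was 61 bp and the shared share of gene-body peaks 21.1%. At 2500 bp from gene ends 26.6% of shared peaks were in bodies. With no fold limit the distance was 65 bp and the shared share 29.5%. With lists of equal length there were 989 members, 102 genes with several, a median ratio of 1.45, 43.9% at 1.5 or above, a distance of 65 bp and a shared share of 48.1%. With genes of every biotype 34.4% of shared peaks were in bodies. Unscaled pileups gave a ratio of 1.13 and 15.0% at 1.5 or above. The cause of these shifts was not tested. Stricter settings leave fewer peaks. For lists of equal length the adriamycin peaks with the lowest q-values were kept, which selects on adriamycin signal.

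The 73 members at an internal promoter became 54 with the start site inside the peak and 106 with it within 500 bp of the summit, alternatives chosen after seeing the data. No paired analysis was possible because each group had 1 library. Unknown depth and pileups near 15 limit every comparison of single members.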
